A study of Homo sapiens with 16 samples.

Results

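MDA-MB-231 cells that carry a doxycycline-inducible hairpin against AKAP2 (shAKAP2) were compared with MDA-MB-231 cells that carry an inducible scramble hairpin (shScramble), both without doxycycline. The members are the 8 libraries labelled as untreated, 4 of each line, out of 16 libraries in the series, and they were chosen by their labels and not by any measured value. The remaining 8 libraries come from the same lines with doxycycline, 4 of each, and were used to estimate the spread and to show the same line difference in a separate set of libraries. Because no hairpin was induced in the 8 libraries compared, a difference between them separates the sublines as they were kept, together with any expression of the hairpin without its inducer. Those sources cannot be told apart by the design, since line and hairpin always go together. No source used here says whether each line is 1 clone or a pool. Libraries of 1 group are labelled as biological replicates, with no word on how their cultures were separated.

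MDA-MB-231 is a triple-negative breast cancer line of mesenchymal character that lacks the oestrogen receptor and carries activating mutations in the RAS and RAF pathway. It is aneuploid and mixed, so cells derived from it by viral transfer and selection can differ in chromosome content and in gene expression before any treatment. A scramble line is therefore used as the control for a hairpin line, and the difference between the uninduced lines is the baseline from which each line's response starts. The hairpin's target, AKAP2, belongs to the A-kinase anchoring proteins, which tether protein kinase A close to its substrates.

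Total counts in the 8 libraries lay between 26082100 and 37472525, and 15566 of the 57500 genes in the table passed the low-count filter. Levels are given as counts-per-million (CPM), scaled for library composition. Root mean square distances in log2 CPM were 0.479 to 0.512 between shAKAP2 libraries, 0.509 to 0.682 between shScramble libraries and 0.592 to 0.803 between lines. The larger distances within shScramble all involved replicate 1, which lay 0.57 to 0.682 from the other three, whereas those lay 0.509 to 0.528 from each other. Mitochondrial transcripts took 1.86 to 2.38% of counts in shAKAP2 and 2.41 to 3.62% in shScramble, with replicate 1 highest. Of the mesenchymal markers, vimentin (VIM) and CD44 stood at 1320 to 1810 CPM and 862 to 1110 CPM, and SPARC at 0.627 to 3.61 CPM. No other cell line was measured, so these levels have no reference here. The luminal regulators FOXA1 and ESR1 had 0 and 1 count in all 8 libraries and the basal keratin KRT5 had none. Other genes of the luminal list were expressed. The simple keratins KRT8, KRT18 and KRT19 stood at 483 to 613, 301 to 417 and 149 to 246 CPM, and EPCAM at 11.9 to 17.8 CPM.

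AKAP2 itself was measured first. In uninduced shAKAP2 it stood at 1.43, 1.38, 1.41 and 1.45 CPM, and in uninduced shScramble at 1.48, 0.959, 1.0 and 1.24 CPM. The lines overlapped, and the difference of 0.27 on the log2 scale (SE 0.374, edgeR quasi-likelihood test, adjusted p = 0.667) did not pass the threshold. The gene lies at chr9:110048598-110172512 (GRCh38, forward strand) and shares exons with the readthrough gene PALM2-AKAP2, whose log2 difference was -0.996 (SE 0.62, adjusted p = 0.279). Reads in shared exons cannot be assigned to one of them with certainty. With doxycycline AKAP2 stood at a mean of 0.0403 CPM in shAKAP2 and 1.76 CPM in shScramble, a log2 difference of -5.38 (adjusted p = 3.09e-07).

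Across all genes, 1346 were higher in uninduced shAKAP2 (8.65% of those tested) and 1449 were lower (9.31%), so 2795 genes or 18% were called at an adjusted p under 0.05 (edgeR quasi-likelihood test, Benjamini-Hochberg adjustment). In 3969 genes (25.5%) the 4 libraries of one line did not overlap the 4 of the other, and these included 1269 of the genes called higher and 1264 of those called lower. Changes of at least 2-fold were mostly decreases, with 361 genes lower and 126 higher, so 74.1% of the called genes of that size were lower in shAKAP2. The counts moved with single libraries. Without shAKAP2 replicate 1 they were 750 higher and 919 lower, and without shAKAP2 replicate 2 they were 802 and 947. With replicate 1 of shScramble left out both without and with doxycycline, 2130 genes were higher and 2026 lower. A test against a 1.5-fold change in place of no change called 35 genes higher and 95 lower. Of the genes named here, VIM, IRF1, PSMB8, PRRC2B, ITGB3, PKIB and RPL10 overlap another gene in at least 10% of their exonic length, and their counts may hold its reads.

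The clearest single differences were genes lower in shAKAP2 than in shScramble. No parental cells are in the series, so a loss in shAKAP2 cannot be told from a gain in shScramble. NGFR, the low-affinity receptor for neurotrophins, had the smallest p of all genes. It stood at 16.6, 12.9, 14.3 and 15.0 CPM in shAKAP2 and at 112, 154, 118 and 113 CPM in shScramble. All 4 shAKAP2 libraries lay far under every shScramble library, and the level was 8.42-fold lower (log2 difference -3.07, SE 0.143, adjusted p = 2.3e-10). NGFR lies at chr17:49495293-49515017 on the forward strand and overlaps the antisense-annotated AC015656.1 in its exons, so part of its counts may be shared with that gene.

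PDE1C, a phosphodiesterase that degrades cAMP and cGMP and is stimulated by calcium and calmodulin, showed the largest fold among the lower genes. It stood at 0.0, 0.346, 0.419 and 0.382 CPM in shAKAP2 against 12.3, 12.8, 12.7 and 18.2 CPM in shScramble. The gene was thus close to the detection limit in one line and well expressed in the other, 48.1-fold lower (log2 difference -5.59, SE 0.4, adjusted p = 7.98e-08). It was the main change among cAMP and cGMP phosphodiesterases, where 0 of 17 tested genes were higher and PDE6D (log2 difference -0.34) was the other lower gene. PDE6D missed the threshold when any one of the 4 shAKAP2 libraries, or replicate 1, 2 or 4 of shScramble, was left out, and without replicate 3 of shScramble 4 phosphodiesterases were lower and 1 was higher.

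NAP1L3, a nucleosome assembly protein gene on chromosome X, stood at 0.102, 0.0384, 0.0761 and 0.0819 CPM in shAKAP2 and at 1.61, 2.14, 2.69 and 1.83 CPM in shScramble. AFF3, a transcription elongation factor gene, was lower by 2.99 on the log2 scale (SE 0.274, adjusted p = 4.64e-07). CHRDL1, which codes for a secreted inhibitor of bone morphogenetic proteins, had a log2 difference of -3.0 (SE 0.299, adjusted p = 1.26e-06). The lines did not overlap in these 3 genes, in NGFR or in PDE1C, which the choice of genes by non-overlap fixes. In shScramble, replicate 2 stood above the other three for NGFR and replicate 4 for PDE1C.

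SRGN encodes serglycin, a proteoglycan of secretory granules that metastatic breast cancer cells secrete. Its levels were 13.3, 15.7, 12.1 and 13.8 CPM in shAKAP2 and 53.8, 41.9, 61.5 and 64.8 CPM in shScramble, a 4.04-fold lower level (SE 0.13 on the log2 scale, adjusted p = 1.02e-08). FHL1, a LIM domain protein gene on chromosome X, was lower by 1.16 on the log2 scale (SE 0.079, adjusted p = 1.71e-08). The organic anion transporter gene SLCO4A1 (log2 difference -1.63) and its antisense gene SLCO4A1-AS1 (log2 difference -2.01) were both lower at the same adjusted p of 2.85e-08. Reads of those overlapping genes cannot be assigned with certainty, because no source used here says whether the counting used strand.

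**Figure D1:**
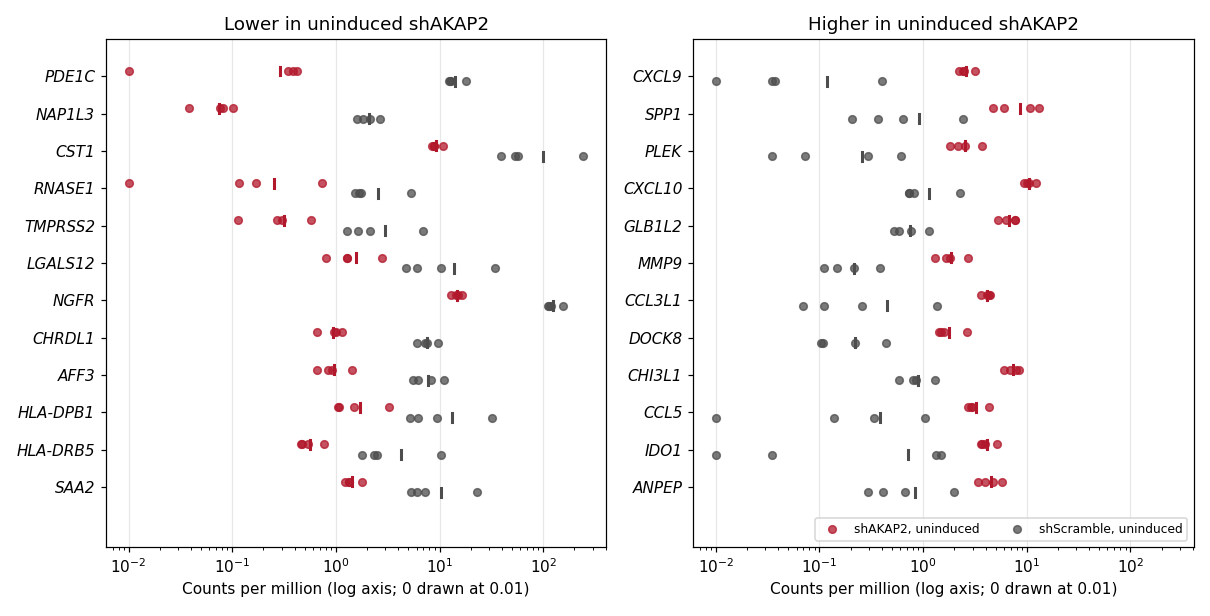
Level in CPM (log axis) of the 12 genes with the largest fold in each direction; points are the 4 libraries of each line, vertical ticks are line means, red is uninduced shAKAP2 and grey is uninduced shScramble. PDE1C and NAP1L3 are near 0 in shAKAP2, whereas in CST1, LGALS12 and HLA-DPB1 1 grey point, shScramble replicate 1, lies far above the other three.

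A second set of lower genes was high in all shScramble libraries but highest by far in replicate 1. CST1, a secreted cysteine protease inhibitor of the cystatin family, stood at 8.75, 8.87, 8.37 and 10.7 CPM in shAKAP2 and at 245, 56.6, 39.2 and 53.8 CPM in shScramble. The lines did not overlap, but replicate 1 was over 4 times as high as the next library of its line. The log2 difference of -3.43 (SE 0.734, adjusted p = 0.00769) became -2.43 (adjusted p = 0.0158) without that library. Cystatin genes are near copies of each other, so CST1 counts are uncertain. The same shape was seen for the ribonuclease gene RNASE1 (log2 difference -3.20), the serine protease gene TMPRSS2 (-3.19), the galectin gene LGALS12 (-3.13) and the acute-phase gene SAA2 (-2.87). Without replicate 1 of shScramble their log2 differences were -2.55, -2.34, -2.13 and -2.12 and all 4 remained below an adjusted p of 0.05. LGALS12 missed that threshold without replicate 1 of shAKAP2 and with limma-voom. SAA2 shares sequence with neighbouring serum amyloid genes and is uncertain in that respect.

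Genes of MHC class II antigen presentation formed the most complete group in that set. MHC class II molecules are pairs of alpha and beta chains that present peptides to helper T cells. The invariant chain CD74 and the HLA-DM proteins guide their loading, and the coactivator CIITA turns the genes on together through a shared promoter module. Of 14 tested genes of this list, 9 were lower in shAKAP2 and 0 were higher, with a median log2 difference of -1.83 against -0.0129 over all genes tested. HLA-DRA, the alpha chain of HLA-DR, stood at 13.7, 14.3, 14.7 and 18.5 CPM in shAKAP2 and at 185, 64.6, 38.9 and 48.3 CPM in shScramble. Every shScramble library exceeded every shAKAP2 library, and replicate 1 stood highest. The log2 difference was -2.46 (SE 0.577, adjusted p = 0.0122) and -1.72 (adjusted p = 0.0281) without replicate 1. With doxycycline it stood at 0.564 to 1.72 CPM in shAKAP2 and 41.3 to 185 CPM in shScramble, where replicate 1 was again highest. HLA-DRA, CD74 and CIITA were singled out after their values were seen.

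Proximal promoters of MHC class II genes are known for a short inverted CCAAT element, the Y box, and 3 promoters that hold its letters are shown because the members moved together. Each is the 150 bases before the start of the gene, 5′ to 3′ on the gene's strand, from RefSeq (GRCh38.p14), with each ATTGG or its reverse complement CCAAT in capitals. HLA-DRB1 lies at chr6:32589849-32589998, HLA-DMA at chr6:32953098-32953247 and CD74 at chr5:150412911-150413060, all on the reverse strand.
HLA-DRB1: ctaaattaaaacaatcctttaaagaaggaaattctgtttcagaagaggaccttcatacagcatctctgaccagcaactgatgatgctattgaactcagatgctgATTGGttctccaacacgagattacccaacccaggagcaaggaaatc
HLA-DMA: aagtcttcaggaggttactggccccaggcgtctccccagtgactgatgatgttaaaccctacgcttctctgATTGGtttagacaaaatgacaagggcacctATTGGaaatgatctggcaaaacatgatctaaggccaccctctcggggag
CD74: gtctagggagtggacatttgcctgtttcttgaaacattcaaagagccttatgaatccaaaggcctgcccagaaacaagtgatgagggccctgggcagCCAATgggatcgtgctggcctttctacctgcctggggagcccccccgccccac

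The word was the only motif searched in these promoters, and it was searched on both strands. It was present in 11 of the 14 promoters of listed genes that the RefSeq table holds (78.6%), in 7 of the 8 promoters of genes called lower (87.5%), and in 24.4% of all 27305 promoters over the same 150 bases. HLA-DPA1 was the gene called lower whose promoter did not hold it. The word was chosen after the group was seen, and a match describes the letters and not a bound site.

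HLA-DRB1, the beta chain of HLA-DR, was at 2.51, 3.57, 3.04 and 3.93 CPM in shAKAP2 and at 54.2, 18.5, 9.88 and 11.6 CPM in shScramble, a log2 difference of -2.85 (SE 0.638, adjusted p = 0.0092). Its near copy HLA-DRB5 (-2.90), the HLA-DP chains HLA-DPA1 (-2.55) and HLA-DPB1 (-2.93), and the loading factor HLA-DMA (-1.87) were lower as well. CD74 was lower by 1.43 on the log2 scale (SE 0.412, adjusted p = 0.0312), which became -0.87 (adjusted p = 0.0869) without replicate 1 of shScramble. CD74 also missed the threshold without any one of the shAKAP2 libraries. HLA-DPB1 missed it without replicate 1 of shScramble (-1.97, adjusted p = 0.0532) and without replicate 1, 2 or 3 of shAKAP2. The group's count of lower genes was 6 or 7 without any one of these 5 libraries, and 6 with limma-voom, where HLA-DRB1 and HLA-DPB1 missed the threshold. The coactivator gene CIITA, at 6.24 to 6.93 CPM in shAKAP2 and 5.97 to 16.7 CPM in shScramble, had a log2 difference of -0.56 (adjusted p = 0.142) and was not called. Its exons overlap DEXI. Allelic and near-identical HLA sequences make the counts of HLA-DRB1 and HLA-DRB5 uncertain.

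**Figure D2:**
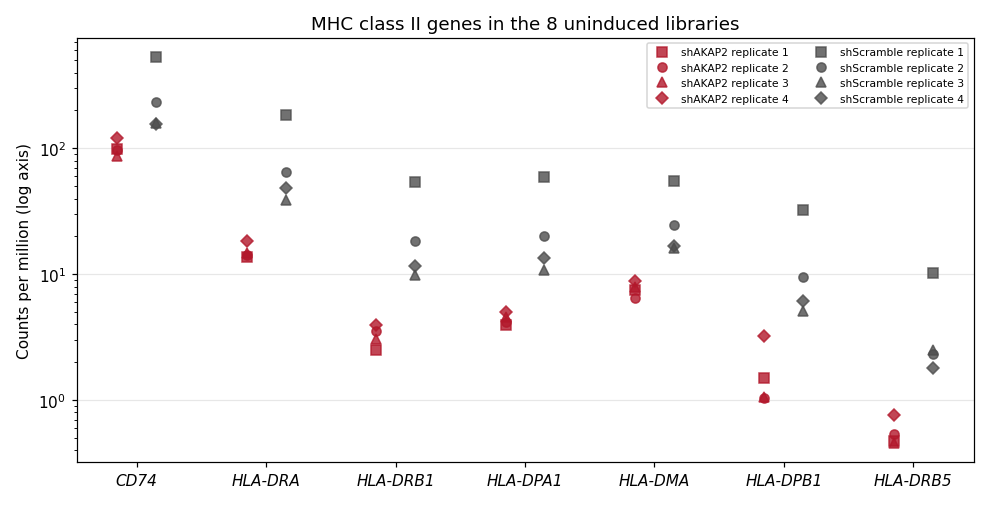
Level in CPM (log axis) of 7 MHC class II genes in each of the 8 uninduced libraries; colour gives the line and marker shape the replicate number. For HLA-DRA the grey square, shScramble replicate 1, stands at 185 and the other shScramble libraries at 38.9 to 64.6, above the 13.7 to 18.5 of shAKAP2.

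Class I presentation, which shows peptides to cytotoxic T cells, also held lower genes. Of 26 tested genes 7 were lower (26.9%) and 1, the chaperone CANX (named after its value was seen), was higher (3.85%). The median log2 difference was -0.399, and of all genes 9.31% were lower and 8.65% higher. The proteasome activator genes PSME2 (-0.65, adjusted p = 1.71e-06) and PSME1 (-0.77, adjusted p = 0.000558) and the immunoproteasome subunits PSMB9 (-0.87) and PSMB8 (-0.56) had the smallest p of this list. PSME1 and PSME2 lie in a stretch of chromosome 14 with many lower genes. The interferon-response list was split, with 11 of 59 genes higher (18.6%) and 7 lower (11.9%). The transcription factor IRF1 was lower (log2 difference -0.55), as was IFI35 (-0.59), whereas the guanylate-binding protein gene GBP5 (2.04) and SAMD9 (0.37) were higher. The count of higher interferon genes was 5 when replicate 1, 2 or 3 of shAKAP2 was left out and 7 without replicate 4 of shAKAP2 or replicate 3 of shScramble. The count of lower ones was 4 without replicate 1, 2 or 3 of shAKAP2 or replicate 1 of shScramble. No class I gene was higher in 5 of the 8 fits with 1 library left out.

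GLB1L2, a beta-galactosidase-like gene at chr11:134331874-134378341, had the smallest p among higher genes. It stood at 7.74, 7.76, 6.24 and 5.27 CPM in shAKAP2 and at 1.13, 0.59, 0.518 and 0.769 CPM in shScramble. The lines were well apart, with a level 8.78-fold higher in shAKAP2 (log2 difference 3.13, SE 0.242, adjusted p = 5.16e-08). ESRP2, an epithelial splicing regulator, was higher by 1.62 on the log2 scale (SE 0.173, adjusted p = 2.79e-06). ARHGDIB was higher by 0.63 (SE 0.0603, adjusted p = 7.09e-07). RABGAP1, a Rab GTPase-activating protein gene that overlaps GPR21, was higher by 0.51 (SE 0.0599, adjusted p = 9.17e-06) and lies in a stretch of chromosome 9 with many higher genes.

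SHC3, a neuronal adaptor of receptor tyrosine kinases, stood at 50.9, 52.5, 47.3 and 51.5 CPM in shAKAP2 and 25.3, 24.9, 24.2 and 21.0 CPM in shScramble. It was 2.12-fold higher in shAKAP2 without doxycycline (SE 0.102 on the log2 scale, adjusted p = 6.24e-07). With doxycycline the order turned, with means of 14 CPM in shAKAP2 and 25.3 CPM in shScramble, and the difference between the line differences was 1.94 on the log2 scale (adjusted p = 8.37e-09).

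The other 11 of the 12 genes with the largest folds upward are known mostly from activated myeloid cells or from the response to interferon gamma. CXCL9, CXCL10, CCL5 and CCL3L1 are chemokines that attract T cells or monocytes. SPP1 (osteopontin), MMP9 (a matrix metalloproteinase) and CHI3L1 (a chitinase-like protein) are secreted proteins of macrophages and of many tumours. PLEK, DOCK8, IDO1 and ANPEP code for a platelet and leukocyte kinase substrate, an activator of Cdc42, a tryptophan-degrading enzyme and an aminopeptidase. The interferon-response list had 11 of 59 genes higher and 7 lower, and the part of interferon in these differences was not tested. IRF1, PSMB9 and the MHC class II genes described above were lower. CXCL10 stood at 10.5, 9.49, 12.2 and 10 CPM in shAKAP2 and at 2.25, 0.812, 0.725 and 0.732 CPM in shScramble, a log2 difference of 3.17 (SE 0.56, adjusted p = 0.00194). SPP1 stood at 6.07, 10.8, 13.1 and 4.75 CPM in shAKAP2 and at 0.644, 0.369, 0.207 and 2.45 CPM in shScramble, a log2 difference of 3.25 (SE 0.639, adjusted p = 0.00386). All shAKAP2 libraries lay above all shScramble libraries for each of these genes, as the rule that named them required. MMP9 overlaps SLC12A5-AS1 in its exons. Log2 differences of the other 9 ran from 2.41 for ANPEP to 4.22 for CXCL9. CCL3L1, which has near-identical copies, missed the threshold without replicate 1 or 3 of shAKAP2 or replicate 2, 3 or 4 of shScramble, and IDO1 missed it without any one of the 4 shAKAP2 libraries, in the 8 uninduced libraries alone and with the replicate number as a block. CXCL9 missed it with limma-voom.

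Markers of blood cells moved with this group. Of 11 listed markers 6 could be tested, of which 4 were higher (CD53, PTPRC, TYROBP and FCER1G) and CD14 was lower. The leukocyte tetraspanin gene CD53 stood at 0.628 to 1.22 CPM in shAKAP2 and 0 to 0.111 CPM in shScramble. PTPRC, the pan-leukocyte phosphatase CD45, stood at 1.04 to 2.21 CPM against 0.0732 to 0.403 CPM. The signalling adaptors TYROBP (0.228 to 0.437 against 0 to 0.0732 CPM) and FCER1G (0.628 to 1.1 against 0.0366 to 0.258 CPM) were low in both lines. CD14, a monocyte coreceptor, stood at 1.12 to 2.19 CPM in shAKAP2 and 2.75 to 7.41 CPM in shScramble, and missed the threshold without replicate 1 or 4 of shAKAP2 or replicate 1 of shScramble. The summed level of the 11 markers was 4.94 to 6.81 CPM in shAKAP2 and 3.29 to 8.46 CPM in shScramble, and CD3E and PPBP had no count. Fewer cells of a type and less RNA per cell cannot be told apart in bulk libraries, and the part of blood-cell RNA in the chemokine result was not tested.

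With doxycycline none of the 11 higher genes from CXCL9 to ANPEP was called, and their log2 differences lay between -0.66 for ANPEP and 0.14 for CXCL9. CXCL10 stood at 6.39 to 11 CPM in induced shAKAP2 and at 1.09, 7.98, 12.4 and 10.8 CPM in induced shScramble. CD53 stood at 0.622 to 1.09 CPM in induced shAKAP2 and at 0.039, 1.16, 1.64 and 0.875 CPM in induced shScramble. In both genes replicate 1 of induced shScramble was low like the uninduced shScramble libraries, and the other 3 were high like shAKAP2. Of the 12 genes with the largest folds upward 9 had a line difference that itself differed between the uninduced and induced libraries (edgeR quasi-likelihood test of the interaction, adjusted p under 0.05). Of the 12 with the largest folds downward 1, PDE1C, had such a change. Both sets were chosen by their uninduced folds, which the interaction also uses, so these counts are a description.

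**Figure D3:**
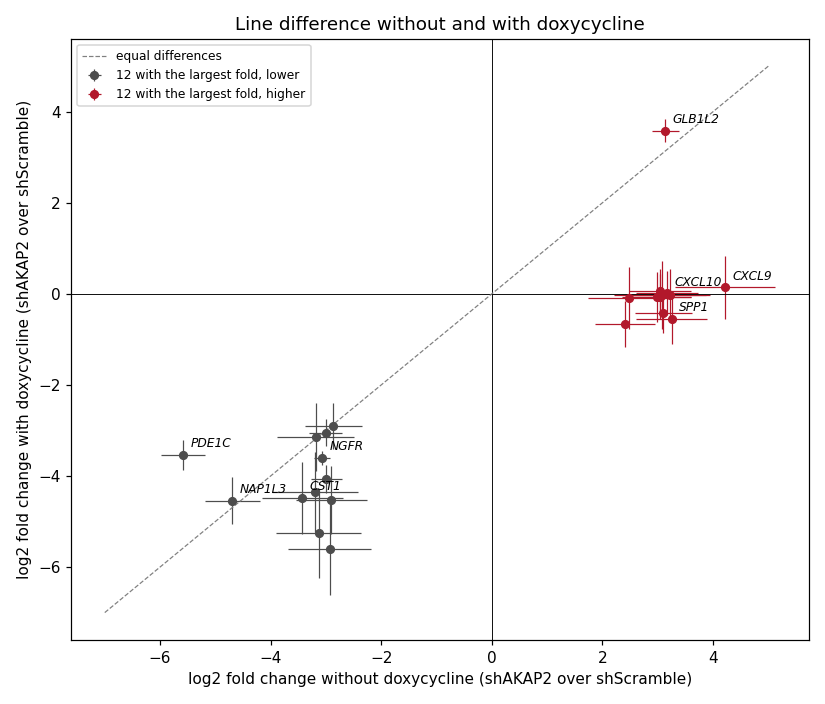
Line difference (log2 fold change, shAKAP2 over shScramble) without doxycycline on the x axis and with doxycycline on the y axis for the 12 genes with the largest fold in each direction; bars are standard errors and the dashed line marks equal differences. The 12 lower genes stay negative on both axes, whereas GLB1L2 is the 1 higher gene that also lies far above 0 with doxycycline, and CXCL9, CXCL10 and SPP1 lie near 0 on the y axis.

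Position along the chromosomes separated the lines over long runs of neighbouring genes. Chromosome X had 201 of 515 tested genes lower in shAKAP2 (39%) and 22 higher, with a median log2 difference of -0.356. Chromosome 14 had 100 of 496 lower (20.2%) and chromosome 13 had 49 of 272 lower (18%). Chromosome 9 went the other way, with 136 of 608 genes higher (22.4%) and 24 lower. Over all genes tested the shares were 8.65% higher and 9.31% lower.

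For chromosomes X, 9 and 14 a stretch with a large shift was set apart from the rest. Its limits were set after the values were seen, from bins of 5 Mb, so the counts inside and outside them are a description. On chromosome X from 92 Mb on (GRCh38), 152 of 224 tested genes were lower (67.9%), 1 was higher, and 210 had a negative log2 difference. Their median was -0.636, which is 64.3% of the shScramble level. Gene medians of the 4 shAKAP2 libraries, relative to the mean of all 8, were -0.284, -0.319, -0.334 and -0.311, and those of the 4 shScramble libraries were 0.335, 0.321, 0.293 and 0.344. The libraries of each line were nearly alike, and replicate 1 of shScramble did not stand apart here. Up to 92 Mb the median was -0.104, with 49 of 291 genes lower and 21 higher. That remainder was not even. In the bins starting at 0, 5, 10, 15 and 20 Mb 7 of 19, 2 of 8, 5 of 20, 5 of 27 and 9 of 19 genes were lower, at bin medians from -0.333 to -0.19. The bin starting at 45 Mb, which holds 67 tested genes, had a median of -0.0159.

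On chromosome 9 from 120 Mb on, 115 of 242 genes were higher (47.5%), 2 were lower and the median was 0.322, or 125% of the shScramble level. Library medians were 0.166 to 0.195 in shAKAP2 and -0.21 to -0.142 in shScramble. The remaining 366 genes of that chromosome had a median of -0.0437 with 21 higher and 22 lower. On chromosome 14 up to 55 Mb 73 of 190 genes were lower (38.4%) at a median of -0.321, or 80.1% of the shScramble level, while the other 306 genes had a median of -0.0162. The 14860 positioned genes outside these 3 stretches had a median of -0.00944, with 1227 higher and 1218 lower. They were not even along the chromosomes. On chromosome 1 the bin starting at 20 Mb had 16 of 47 genes higher and 1 lower, and the bin starting at 150 Mb had 23 of 98 lower and 1 higher. On chromosome 8 the bin starting at 5 Mb had 5 of 13 higher and 0 lower, and the bin starting at 120 Mb had 9 of 27 lower and 1 higher. These 4 bins were picked after their values were seen. The chromosome X stretch held 10.5% of all genes called lower, the chromosome 14 stretch 5.04% of them, and the chromosome 9 stretch 8.54% of all genes called higher.

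The shifts were present in the induced libraries too, where 18.7% of all genes were higher and 21.5% lower. Induced medians were -0.603 in the chromosome X stretch (147 genes lower), 0.307 in the chromosome 9 stretch (118 higher) and -0.235 in the chromosome 14 stretch (74 lower). Without replicate 1 of shScramble the counts without doxycycline were 149, 114 and 62. Scaling the libraries without genes of chromosomes X, 9, 13 and 14 gave 154, 111 and 77. DNA was not measured in these libraries, and whether copy number or another source goes with the shifts was not tested.

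**Figure D4:**
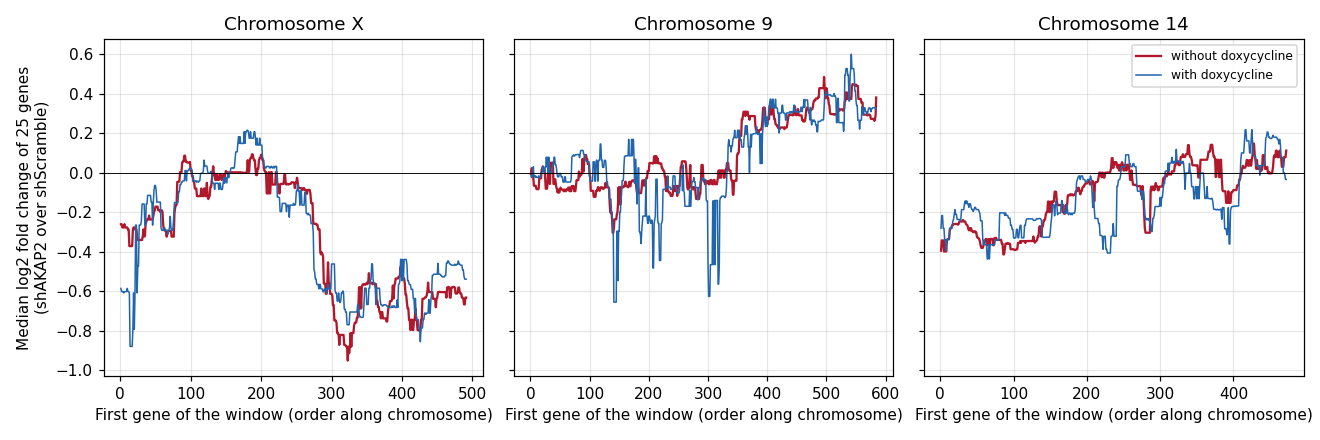
Median log2 fold change (shAKAP2 over shScramble) of windows of 25 tested genes in their order along chromosomes X, 9 and 14, without doxycycline in red and with doxycycline in blue. The level steps down in the second part of chromosome X, where the lowest window is at -0.951, and the red line steps up in the last part of chromosome 9 to 0.485 at most.

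The 4 windows of 25 genes with the lowest medians all lay in the chromosome X stretch. The lowest, at chrX:103252995-107000244, had a median of -0.951 and 16 of 25 genes lower, and all 25 were negative. It holds the brain-expressed and transcription elongation factor A-like genes, of which TCEAL8 (log2 difference -1.34), TCEAL9 (-1.01) and BEX3 (-0.95) had the smallest p together with MORF4L2 (-0.77), a chromatin subunit gene. BEX3, which codes for a binding partner of the NGFR protein, stood at 72.3, 69.4, 72.9 and 70.4 CPM in shAKAP2 and 147, 141, 131 and 132 CPM in shScramble. With doxycycline BEX3 kept its difference (-0.77), whereas MORF4L2 had a difference of 0.04 and the change in its line difference was -0.81 (adjusted p = 8.48e-07).

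The next windows were chrX:134543337-141909388 (median -0.799, 18 lower), chrX:119399060-124963817 (median -0.753, 20 lower) and chrX:154389955-155334657 (median -0.666, 20 lower). The first of these holds FHL1, MOSPD1, RTL8A and SPANXB1. The second holds the ubiquitin ligase scaffold gene CUL4B (log2 difference -0.68), the ubiquitin-conjugating enzyme gene UBE2A (-0.76), the complex I subunit gene NDUFA1 (-0.86) and the cohesin subunit gene STAG2 (-0.53). The third holds FUNDC2 (-0.94), FAM3A (-0.94), UBL4A (-0.67) and the prefoldin subunit gene VBP1 (-0.69). NDUFA1 stood at 50.8, 47.2, 46.9 and 46.1 CPM in shAKAP2 and 90.1, 86.6, 85.1 and 84.2 CPM in shScramble. Its exons overlap RNF113A and those of UBE2A overlap NKRF, so these counts are uncertain, as are those of RTL8A, which has near-identical copies.

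On chromosome 9 the windows with the highest medians were chr9:130713946-133336398 (median 0.485, 14 higher), chr9:135808487-136841187 (0.448, 14 higher) and chr9:137138390-137870016 (0.381, 12 higher). They hold the protein mannosylation gene POMT1 (log2 difference 0.68), the nucleolar protein gene SURF6 (0.76), the transcription factor IIIC subunit gene GTF3C4 (0.64) and PRRC2B (0.75). They also hold NACC2 (0.51), the mitochondrial processing peptidase gene PMPCA (0.49), RABL6 (0.45), TMEM250 (0.36), the negative elongation factor gene NELFB (0.43), NSMF (0.50), ZMYND19 (0.51) and the histone methyltransferase gene EHMT1 (0.47). POMT1, GTF3C4 and EHMT1 were not called with doxycycline, and the line difference of each changed between conditions by 0.83, 0.79 and 0.53. The fourth window, chr17:35092208-36212878, had a median of 0.358 but only 5 genes higher and 2 lower. It holds the chemokine genes CCL5 and CCL3L1 and the adaptin gene AP2B1 (0.36), and its median with doxycycline was 0.00169.

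Cancer-testis antigens, are germline genes that tumours can switch on. Of 7 tested 5 were lower (71.4%, against 9.31% of all genes) and 0 higher (against 8.65%), at a median of -1.74. Of the 7, 4 lie in the chromosome X stretch, where 67.9% of tested genes were lower. SPANXB1 stood at 4.55, 3.53, 4.6 and 4.26 CPM in shAKAP2 and 19, 10.7, 13.2 and 13.7 CPM in shScramble, a log2 difference of -1.74 (SE 0.16, adjusted p = 4.9e-07). Several of these genes, SPANXB1 among them, have near-identical copies, which makes their counts uncertain. PAGE5 (-2.50), MAGEC2 (-2.47) and CT83 (-0.86) were lower too. The median of the list was farther from 0 than the median of the stretch (-0.636), but it rests on 7 genes, several with uncertain counts. The part of position in this list was not tested.

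Genes tied to the spread of MDA-MB-231 cells to lung, bone and brain went both ways. Of 43 tested genes 12 were higher and 12 lower (27.9% each, against 8.65% and 9.31% of all genes), at a median of -0.431. The chemokine receptor gene CXCR4 stood at 4.17, 2.73, 3.27 and 4.12 CPM in shAKAP2 and 12.5, 11.2, 14.8 and 15.3 CPM in shScramble, a log2 difference of -1.90 (SE 0.161, adjusted p = 1.6e-07). The matrix protein gene TNC (tenascin C) stood at 43.6, 42.1, 42.3 and 42.8 CPM in shAKAP2 and 24.6, 23.0, 20.1 and 21.1 CPM in shScramble, a log2 difference of 0.94 (SE 0.135, adjusted p = 9.58e-05). The lines did not overlap in either gene. TNC turned with doxycycline, to a line difference of -1.32, and the change was 2.27 on the log2 scale (adjusted p = 6.38e-08). SRGN and the guidance receptor gene ROBO1 (-1.60) were the other lower genes of the list with the smallest p.

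KISS1, a metastasis suppressor that codes for the kisspeptin hormones, stood at 1.02, 1.04, 1.9 and 1.06 CPM in shAKAP2 and 6.31, 6.57, 9.19 and 7.65 CPM in shScramble. It was lower by 2.57 on the log2 scale (SE 0.212, adjusted p = 1.19e-07). With doxycycline the means were 6.26 CPM in shAKAP2 and 8.42 CPM in shScramble, and the line difference changed by -2.14 (adjusted p = 1.67e-05). Among 32 tumour suppressor genes KISS1 and CHEK2 (-0.53) were lower (6.25%), and 8 were higher (25%), against 9.31% and 8.65% of all genes. Of the higher genes TSC1 (0.49), in the chromosome 9 stretch, and APC (0.41) had the smallest p. The number of higher genes was 3 without replicate 1 or 3 of shAKAP2, 4 without replicate 2 of shAKAP2, and 5 without replicate 4 of shAKAP2 or replicate 2 or 3 of shScramble. Of these 32 genes 18 are in the longest of 5 equal groups of all genes by exonic length, the groups used for the respiratory chain.

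Of 22 integrins, receptors for the matrix or for other cells, 7 were higher (31.8%) and 1 was lower (4.55%) at a median of 0.146. The laminin receptor chain ITGA6 stood at 723, 738, 679 and 726 CPM in shAKAP2 and 492, 528, 494 and 514 CPM in shScramble (log2 difference 0.50, adjusted p = 0.000212). Of the other higher integrins, ITGAX (log2 difference 2.58) and ITGAM (2.37) are leukocyte chains and stood below 1 CPM in every library. ITGAL and ITGB2, named after their values were seen, are leukocyte chains too, and the remaining higher genes were ITGA3 and ITGA4. The vitronectin receptor chain ITGB3 was lower by 1.58 and missed the threshold without replicate 1 of shScramble (-0.965, adjusted p = 0.076). The number of higher integrins was 2 without replicate 1 or 3 of shAKAP2, 3 without replicate 2 of shAKAP2 or shScramble, 4 without replicate 3 or 4 of shScramble, and 3 with a filter of 1 CPM in 4 libraries. ITGAX was lost without replicate 1 or 3 of shAKAP2, and ITGAM without replicate 2 or 3 of shAKAP2 or replicate 2 of shScramble. Of 36 cadherins and protocadherins 4 were higher (11.1%) and 2 lower (5.56%), shares near the 8.65% and 9.31% of all genes. The smallest p were those of the giant cadherin FAT3 (log2 difference -2.07, adjusted p = 1.15e-06), PCDHB14 (1.01) and FAT4 (0.77). Without replicate 2 or 4 of shAKAP2 2 of the list were higher. Without replicate 1 or 2 of shAKAP2 or replicate 1 of shScramble 1 was lower.

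Genes of the mesenchymal state went both ways. Of 28 genes 5 were higher and 5 lower (17.9% each, against 8.65% and 9.31% of all genes), at a median of -0.0752. VIM was higher by 0.30 on the log2 scale (adjusted p = 0.00286) and CD44 by 0.23 (adjusted p = 0.00955). S100A4, a calcium-binding protein of motile cells, was lower by 0.87 (adjusted p = 0.00452). Among 7 testable luminal markers 0 were higher and 2 were lower, one of them the luminal transcription factor GATA3 (-0.58). Higher mesenchymal genes numbered 2 without replicate 1 or 2 of shAKAP2 and 3 without replicate 3 of shAKAP2 or replicate 4 of shScramble. Lower ones numbered 3 without replicate 2 or 3 of shAKAP2 or replicate 2 of shScramble and 2 without replicate 1 of shScramble. Of the luminal markers 1 was lower without replicate 1 or 2 of shAKAP2 or replicate 1 of shScramble.

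Extracellular matrix genes were changed in both directions. Of 58 matrix glycoproteins and crosslinkers 12 were higher (20.7%) and 8 lower (13.8%), against 8.65% and 9.31% of all genes. Of these 58 genes 21 are in the longest group by exonic length. NOV, a matricellular protein of the CCN family, was higher by 1.09 on the log2 scale (adjusted p = 7.87e-05), and thrombospondin 2 (THBS2, -1.50) and matrilin 2 (MATN2, -0.71) were lower. Lower genes of this list numbered 5 without replicate 1 or 4 of shAKAP2 or replicate 1 of shScramble, and 4 without replicate 2 or 3 of shAKAP2. Of 44 matrix proteases and inhibitors 7 were higher (15.9%) and 9 lower (20.5%). The collagenase MMP1 stood at 16, 13, 18.4 and 10.1 CPM in shAKAP2 and 34.0, 39.4, 83.2 and 62.1 CPM in shScramble (log2 difference -1.93, adjusted p = 0.000498). The plasminogen activator PLAT was lower (-0.65), and the protease inhibitor SERPINE2 was higher (1.06, adjusted p = 2.67e-05).

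Of 43 growth factor ligands 11 were lower (25.6%) and 3 higher (6.98%), against 9.31% and 8.65% of all genes, with a median of -0.377. VEGFA, the main ligand for vessel growth, stood at 127 CPM or less in every shAKAP2 library and at 181, 169, 178 and 170 CPM in shScramble (log2 difference -0.54, SE 0.0573, adjusted p = 2.6e-06). Pleiotrophin (PTN, -1.17), the AXL and MER ligand GAS6 (-0.65) and angiopoietin 1 (ANGPT1, -1.49) were lower as well. The number of lower ligands was 6 without replicate 1 or 3 of shAKAP2 or replicate 2 of shScramble, and 7 without replicate 1 or 4 of shScramble. Of 34 receptor tyrosine kinases 6 were higher (17.6%) and 2 lower (5.88%). Without any one shAKAP2 library, or replicate 1 or 3 of shScramble, 1 was lower. Of these 34 genes 16 are in the longest group by exonic length, where 18.1% of genes were higher and 6.19% lower. The part of transcript length in these shares was not tested. MET, the hepatocyte growth factor receptor, was higher by 0.49 (adjusted p = 0.000449), as were EPHB2 (0.49) and EPHA2 (0.40), whereas PDGFRB (-0.70) was lower. MET turned with doxycycline to a line difference of -0.55, a change of 1.04 (adjusted p = 2.14e-06).

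Of 35 target genes of the ERK cascade 7 were higher (20%) and 1 lower (2.86%), against 8.65% and 9.31% of all genes, at a median of 0.0828. No target was lower without replicate 2 or 4 of shAKAP2 or replicate 1 of shScramble. FOS, an immediate early transcription factor, stood at 8.82, 13.3, 8.56 and 13.9 CPM in shAKAP2 and 2.63, 6.34, 4.04 and 3.73 CPM in shScramble (log2 difference 1.42, adjusted p = 0.00153). The phosphatase gene DUSP1 was higher by 0.84 and MYC by 0.39. The TGF-beta and BMP list had 13 of 52 genes higher (25%) and 9 lower (17.3%), with the receptor gene BMPR2 at 0.44 and the activin subunit gene INHBA at -1.51. ID4, an inhibitor of basic helix-loop-helix factors, had 2 counts in the 4 shAKAP2 libraries and 104 counts in the 4 shScramble libraries. In the TGF-beta and BMP list the higher genes numbered 5 without replicate 1 or 2 of shAKAP2 and 7 without replicate 3 of shAKAP2 or replicate 1, 2 or 4 of shScramble, and the lower genes numbered 5 without replicate 1 of shAKAP2. Of 28 targets of YAP and TAZ, coactivators of the Hippo pathway, 7 were higher (25%) and 4 lower (14.3%). Of these 28 genes 10 are in the longest group by exonic length. ANKRD1 stood at 212, 197, 227 and 234 CPM in shAKAP2 and 435, 430, 416 and 473 CPM in shScramble (log2 difference -1.01, adjusted p = 2.9e-08), while DLC1 (0.73) and CRIM1 (0.40) were higher and NUAK2 (-1.05) was lower. Without replicate 1, 2 or 3 of shAKAP2 4 of these targets were higher, and without replicate 1 or 2 of shAKAP2 or replicate 2 of shScramble 2 were lower. Chemokines and interleukins other than those already described included the receptor antagonist IL1RN (1.25) and the cytokine IL11 (-1.29). Of the whole list of 37, 10 were higher (27%) and 7 lower (18.9%). Without replicate 3 of shScramble 11 were lower.

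The pathway to which AKAP2 belongs was also examined. Of 31 genes of protein kinase A, A-kinase anchors and adenylyl cyclases 3 were higher (9.68%) and 1 lower (3.23%) at a median of 0.0846, against 8.65% and 9.31% of all genes. The anchor AKAP12 was higher by 0.73 (adjusted p = 0.0165), the regulatory subunit PRKAR1A by 0.23 (adjusted p = 0.0192) and the kinase inhibitor PKIB by 1.82 (adjusted p = 0.0313), and AKAP6 was lower by 1.32 (adjusted p = 0.0269). PKIB missed the threshold with the replicate block over the 8 uninduced libraries and in 5 of the 8 fits with 1 library left out, AKAP6 in 4 and PRKAR1A in 2. AKAP12 passed in all 8. The count of higher genes was 1 without replicate 4 of shAKAP2 or replicate 3 of shScramble.

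Genes for respiration and protein synthesis are given beside transcript length, which moved with the line difference over all genes. Over all genes the median log2 difference was -0.135 in the shortest and 0.101 in the longest of 5 equal groups of genes by annotated exonic length. The share of genes called higher went from 2.32% to 18.1% between those groups and the share called lower from 11% to 6.19%. With doxycycline the medians of the same groups were -0.0414 and -0.0225. Of 74 nuclear-encoded subunits of the respiratory chain 22 were lower (29.7%) and 1 was higher (1.35%), against 9.31% and 8.65% of all genes. Their median was -0.194, and 33 of the 74 belong to the shortest group. Besides NDUFA1, the subunits NDUFA12 (-0.39), COX6C (-0.38) and ATP5MC2 (-0.30) had the smallest p. Of 13 mitochondrially encoded transcripts MT-ND5 was called (-0.53, lower), and the median was -0.424. MT-ND5 missed the threshold without any one shAKAP2 library or replicate 1 or 4 of shScramble. With the replicate number as a block 4 of the 13 were lower over 16 libraries and 12 over the 8 uninduced libraries, and 4 were lower with DESeq2. Of 78 cytosolic ribosomal proteins 11 were lower (14.1%) and 4 higher (5.13%), at a median of -0.143, with 23 in the shortest group. RPL39 (-0.95) and RPL10 (-0.58), both in the chromosome X stretch, RPS29 (-0.45), in the chromosome 14 stretch, and RPL21 (-0.34) had the smallest p. Processed pseudogenes of ribosomal protein genes make these counts uncertain. The part of transcript length in these counts was not tested.

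**Figure D5:**
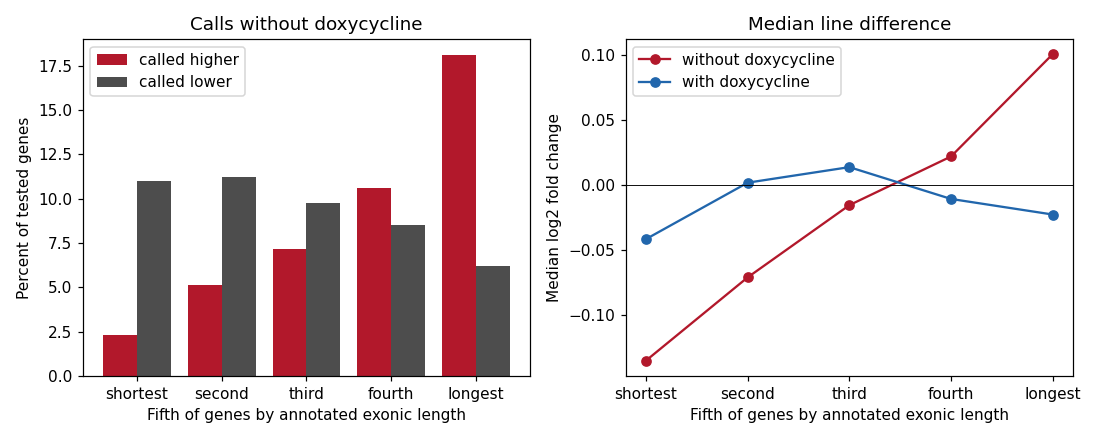
Percent of tested genes called higher (red) and lower (grey) in uninduced shAKAP2 in 5 equal groups of genes by annotated exonic length (left), and the median log2 fold change of each group without (red) and with (blue) doxycycline (right). Without doxycycline the median goes from -0.135 in the shortest group to 0.101 in the longest, and with doxycycline it stays between -0.0414 and 0.014.

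These counts depended on the libraries in the fit. Lower respiratory chain genes numbered 12, 11 and 12 without replicate 1, 2 and 4 of shAKAP2, 15 and 14 without replicate 3 and 4 of shScramble, and 43 with both shScramble replicate 1 libraries left out. Lower ribosomal proteins numbered 5 without any one shAKAP2 library or shScramble replicate 3, 6 without shScramble replicate 4, and 48 with both shScramble replicate 1 libraries left out. Higher ones numbered 1 without replicate 1, 2 or 3 of shAKAP2 or replicate 2 of shScramble. Ribosome biogenesis genes went the other way, with 8 of 42 higher (19%, against 8.65% of all genes) and 0 lower at a median of 0.189. The higher ones included MYC and nucleolin (NCL, 0.43), and NCL missed the threshold without replicate 2 of shAKAP2 or replicate 1 of shScramble. Without replicate 1 of shScramble, or replicate 1 or 2 of shAKAP2, 2 of the ribosome biogenesis genes were higher. The higher ones numbered 3 without replicate 3 of shAKAP2 or replicate 2 of shScramble, and 5 without replicate 4 of shAKAP2. Without replicate 1 of shScramble 1 was lower, and with both shScramble replicate 1 libraries left out 14 were higher and 4 lower. Replication-dependent histone genes were higher in 4 of 27 cases (14.8%), with HIST1H2BK (0.43) and HIST1H1C (0.39) of the smallest p. They were higher in 2 cases without replicate 1 or 2 of shAKAP2 or replicate 1 of shScramble.

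Of 53 genes of the G1/S transition and DNA replication 4 were higher (7.55%) and 1 was lower (1.89%), and the kinase gene CDK6 had the smallest p (log2 difference 0.86, adjusted p = 0.000172). Of 48 genes of G2/M and mitosis 3 were higher (6.25%) and 2 lower (4.17%). All 4 shares are under those of all genes, 8.65% and 9.31%. Both lists moved with replicate 1 of shScramble, without which 7 genes of the first and 9 of the second were lower and 1 of each was higher. The higher genes of the first list also numbered 1 without replicate 1 or 2 of shAKAP2 and 2 without replicate 3 of shAKAP2. Those of the second numbered 1 without replicate 1, 2 or 4 of shAKAP2 or replicate 3 of shScramble.

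The lines were compared again in the 8 induced libraries, which share no library with the uninduced comparison. The labels do not say whether same-numbered cultures of a line without and with doxycycline share a source. Of the 1346 genes higher without doxycycline 655 were also higher with it (48.7%, and 22.5% of the 2911 induced higher genes), and 140 were lower (10.4%). Of the 1449 lower genes 887 were also lower (61.2%, and 26.6% of the 3340 induced lower genes), and 40 were higher (2.76%). Induced shAKAP2 cells also carry the active AKAP2 hairpin, so the induced difference holds the line difference and the hairpin response together.

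The 3' untranslated regions of the called genes were searched for GAACACA, a word of 7 letters taken from earlier results of these data on hairpin induction. Induction within the shAKAP2 line is measured against the same uninduced shAKAP2 libraries, so the word was not chosen independently of this comparison. The intervals below treat genes as independent, and the shares are a description. It occurred in any annotated 3' untranslated region of 21.7% of 1302 higher genes (95% exact binomial interval 19.4 to 24), 13.1% of 1316 lower genes (11.4 to 15.1) and 17% of 10244 genes not called (16.2 to 17.7). The median length of the longest 3' untranslated region was 2256 bases in higher, 1328.5 in lower and 1611 in uncalled genes, so the shares followed the order of the lengths.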

How the data were processed

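RNA was selected by poly(A) and sequenced from 16 libraries, per the labels' protocols. The authors deposited 1 table of raw counts per gene. STAR 2.5.2b, featureCounts and Subread 1.5.2 and the build GRCh38 are named in the submitters' processing notes. Libraries were grouped by their labels. Counts were analysed with edgeR 4.0.16 in R 4.3.3 (filterByExpr, TMM scaling, robust quasi-likelihood fit over all 16 libraries with 1 mean per group), with limma 3.58.1 and DESeq2 1.42.0 for alternatives. The contrast was uninduced shAKAP2 minus uninduced shScramble, calls required an adjusted p (Benjamini-Hochberg) under 0.05, and SE is the absolute log2 difference over the root of F. P-values set the line difference against the spread between cultures within groups, estimated over all 16 libraries. They do not cover variation between separately made lines with the same hairpin. The biological coefficient of variation was 14.4%, with 12 residual degrees of freedom. The fit was tested on simulated data. Positions and lengths came from GENCODE, matched by gene identifier for 15516 of 15566 genes.

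The members and gene lists (51, written from general knowledge) were chosen with earlier results of these data known. Genes were named by rule: AKAP2; among called genes with at least 1 CPM on average, no overlap between lines and no clone name as symbol, the 12 largest folds and 5 smallest p in each direction; up to 4 members with the smallest p of each list and of each named window of 25 genes. Genes with shared or overlapping sequence kept their place. Same-numbered uninduced libraries of the lines did not deviate together (correlations -0.02, 0.015, 0.027 and -0.041). Alternatives were other scalings, tools and filters, the 8 libraries alone, a replicate block, each library left out, a 1.5-fold test, windows of 50 genes and the longest 3' untranslated region. One marker of the blood list is not reported here by name.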

Additional observations from a re-analysis of the deposited data

Results flagged for a closer look

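In groups of 4 libraries, 24 of 290 gene-by-line groups had 1 library whose gap to the nearest other, as a share of the group's range, exceeded Dixon's 95% critical value, and chance alone marks about 1 in 20 groups. Replicate 1 of uninduced shScramble stood above the other three, with shares of 0.855 for CCL3L1, 0.916 for CST1, 0.944 for CXCL10, 0.908 for CXCL9, 0.88 for GBP5, 0.842 for HLA-DPB1, 0.918 for HLA-DRB5, 0.851 for ITGB3, 0.985 for PLAT, 0.858 for PSME1, 0.937 for RNASE1, 0.89 for SAA2 and 0.85 for TMPRSS2. Replicate 1 of uninduced shScramble stood below the other three, with shares of 0.844 for HIST1H1C, 0.842 for NCL and 0.921 for PMPCA. The remaining single libraries were CCL5 (shAKAP2 replicate 3 high, 0.844), DOCK8 (shAKAP2 replicate 3 high, 0.872), KISS1 (shAKAP2 replicate 3 high, 0.947), EPHB2 (shAKAP2 replicate 4 low, 0.891), ITGB3 (shAKAP2 replicate 2 high, 0.97), NGFR (shScramble replicate 2 high, 0.863), PDE1C (shScramble replicate 4 high, 0.923) and S100A4 (shAKAP2 replicate 4 high, 0.893).

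The line difference without doxycycline was itself different from that with doxycycline in 59 of 145 named genes (edgeR quasi-likelihood test of the interaction, adjusted p under 0.05). Most of these genes were named by their uninduced values, which this difference also uses, so the count is a description. The share over all tested genes is not given here. Each value is the uninduced minus the induced line difference on the log2 scale. Positive differences of at least 2 were 5.65 for AKAP2, 4.48 for CD53, 4.32 for TYROBP, 4.08 for CXCL9, 3.97 for HLA-DRA, 3.79 for SPP1, 3.73 for MMP1, 3.52 for MMP9, 3.31 for PTPRC, 3.24 for PLEK, 3.15 for CXCL10, 3.13 for PALM2-AKAP2, 3.11 for CHI3L1, 3.08 for ANPEP, 3.05 for CCL5, 2.99 for DOCK8, 2.82 for FCER1G, 2.42 for IL1RN, 2.37 for GBP5, 2.27 for TNC and 2.11 for CIITA. Those from 1 to 2 were 1.94 for SHC3, 1.69 for CXCR4, 1.58 for PLAT, 1.39 for THBS2, 1.35 for MATN2, 1.09 for FHL1, 1.09 for S100A4, 1.04 for MET, 1.01 for IRF1 and 1.01 for PDGFRB. Smaller positive ones were 0.83 for POMT1, 0.795 for APC, 0.795 for MT-ND5, 0.787 for GTF3C4, 0.752 for CRIM1, 0.732 for NOV, 0.728 for SLCO4A1, 0.66 for PRKAR1A, 0.647 for FAT4, 0.571 for BMPR2, 0.547 for FUNDC2, 0.527 for EHMT1, 0.503 for PDE6D, 0.439 for SAMD9, 0.395 for AP2B1 and 0.237 for VEGFA. Negative differences were -2.14 for KISS1, -2.05 for PDE1C, -1.24 for FAT3, -1.1 for SPANXB1, -1.09 for HIST1H1C, -0.85 for HIST1H2BK, -0.81 for MORF4L2, -0.728 for TMEM250, -0.546 for NSMF, -0.398 for ANKRD1, -0.329 for STAG2 and -0.312 for VBP1. TYROBP had 3 counts in uninduced shScramble, so its fitted value depends on the prior count.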

How the results depend on the processing

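All called counts stayed within 1.5 times under other size factors (1343 higher, 1451 lower), DESeq2 (1577, 1690), limma-voom (1390, 1376), no low-count filter (1075, 1295), a filter of 1 CPM in 4 libraries (1347, 1513), the 8 uninduced libraries alone (1545, 1550) and scaling without chromosomes X, 9, 13 and 14 (1267, 1532), which was added after seeing the data. A test against a 1.5-fold change called 35 higher and 95 lower, and 21, 1 and 3 genes in the stretches of chromosomes X, 9 and 14. Leaving out both shScramble replicate 1 libraries gave 2130 higher and 2026 lower. Leaving out 1 library gave 750 to 1208 higher and 919 to 1385 lower. The causes were not tested. Windows of 50 genes had extreme medians of -0.792 and 0.391, against -0.951 and 0.485 for windows of 25. The fourth lowest was then on chromosome 14 (-0.389), and a window on chromosome 8 (0.308) took the place of the one on chromosome 17. In the longest 3' untranslated region alone GAACACA occurred in 18.2% of higher, 11.5% of lower and 14.2% of uncalled genes.

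A fit with the replicate number as a block called 1404 higher and 1465 lower over 16 libraries, and 1282 and 1304 over 8. The block ended the calls of IDO1 (both fits) and PKIB (8 libraries), and raised the lower mitochondrial transcripts from 1 to 4 and 12. The labels give shared numbers and no shared source, and no uninduced library correlated best with its own number in the other line (0 of 4). Same-numbered libraries of a line without and with doxycycline were not compared in this way. Replicate 1 of shScramble was highest of its group for HLA-DRA and CST1 in both conditions. Whether the induced libraries are independent of the uninduced ones was not tested.

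Over the named genes and all alternatives, 2575 values kept their direction and side of the threshold, 170 no longer passed and 1 newly passed, and none changed direction. Without the low-count filter AKAP12, AKAP6, CCL3L1, CD14, CD74, IDO1, MT-ND5 and NCL no longer passed. The filter's removal also left 3 higher tumour suppressors, 7 higher interferon genes, 8 higher TGF-beta and BMP genes, 3 higher ribosome biogenesis genes and 4 lower matrix glycoproteins. In the 8 uninduced libraries alone 34 ribosomal proteins and 6 mitochondrial transcripts were lower and 2 mesenchymal genes were lower. Depth limits genes under about 1 CPM, where a few counts decide a library's value.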
